A study of Mus musculus with 365 samples.

Results

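The cells described here are the 105 TN progenitors, of 213 TN cells and 365 cells in all, in which Mpo or Prtn3 reached 25 CPM, a cell's reads of a gene scaled to 1000000 gene reads. They are compared with the other 108 TN cells, in which both genes lay below 25 CPM. TN, triple negative in the labels, is a sorted part of EPLM, the bone marrow progenitors with both lymphoid and myeloid potential. All cells came from femurs of C57BL/6 mice that carry the Flt3Ltg transgene for Flt3 ligand, a growth factor for early lymphoid and dendritic progenitors. The transgene was thus present on both sides, and no mouse without it enters the comparison. Every label names a pool of 2 mice. Cells were captured one by one on Fluidigm C1 chips, small microfluidic devices, and 3 chips held TN cells. Chips 1, 2 and 3 held 37, 30 and 38 positive cells and 38, 39 and 31 other cells. A further 152 cells came from the Ly6D+ part of EPLM on 3 chips of their own, and 19 of them met the same rule.

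Mpo encodes myeloperoxidase and Prtn3 encodes proteinase 3, both proteins of the primary (azurophil) granules of neutrophils and monocytes. Their transcripts are made early, in granulocyte and monocyte progenitors, together with those of neutrophil elastase (Elane) and cathepsin G (Ctsg), and are shut off as these cells mature. Multipotent and early lymphoid progenitors can carry low levels of Mpo transcript before they commit to a lineage. Because Mpo and Prtn3 chose the cells, their own levels are a description and no result.

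Among the positive cells, 48 held both genes at 25 CPM or more, 25 held Mpo alone and 32 held Prtn3 alone. On chips 1, 2 and 3 these numbered 18, 11 and 19 cells with both, 8, 10 and 7 with Mpo alone, and 11, 9 and 12 with Prtn3 alone. Cells with both genes had a median of 2233 CPM of Mpo and 387 CPM of Prtn3. Cells with Mpo alone had a median of 419 CPM of Mpo, and cells with Prtn3 alone a median of 146 CPM of Prtn3. The higher of the 2 genes reached 44843 CPM in the highest cell, and its median was 419, 398 and 620 CPM on chips 1, 2 and 3. Few cells lay near the threshold. The lowest positive cells had 25.6, 28.9 and 33.3 CPM of the higher gene, the highest other cells 24.2, 21.2 and 20.2 CPM, and 90 of the 108 other cells had no read of either gene.

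**Figure D1:**
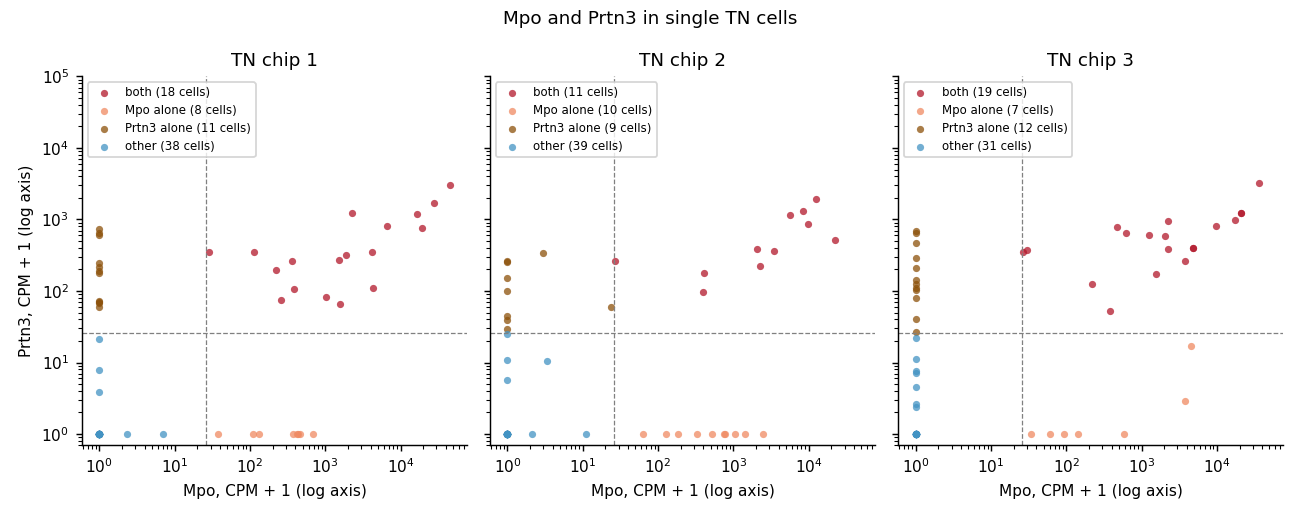
Mpo against Prtn3 in each TN cell, in CPM plus 1 on log axes, with 1 panel per chip and dashed lines at the threshold of 25 CPM. The 48 cells with both genes take the upper right of the panels, where Mpo reaches 44843 CPM, while most cells with 1 gene alone have no read of the other gene.

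Positive cells held more detected genes than the other cells on each chip. After every cell was thinned to 200000 reads, with a gene called detected at 5 thinned reads, positive cells held a mean of 2924, 2925 and 2719 genes on chips 1, 2 and 3, and other cells 2300, 2190 and 2105. Every chip showed the same direction. The positive minus other differences of 624, 735 and 614 genes averaged 657 genes (exact two-sided sign-flip permutation p = 0.25, the smallest that 3 chips allow). The 16 TN cells with fewer than 1500 detected genes were all on the other side. Median reads per cell were 858637, 869012 and 822737 on the positive side and 821990, 742885 and 659742 on the other side (exact two-sided sign-flip permutation p = 0.25 for their ratio). The gap in detected genes runs the same way as the higher shares of detecting cells given below and opposite to the lower ones. Its part in these shares was not tested. TN cells held from 267852 to 1372556 reads, without molecular identifiers, so read numbers are not numbers of molecules.

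For levels, reads were summed over the cells of each side of a chip and scaled to CPM with TMM library sizes. Since no label ties a mouse to a chip, the replicates are chips, and the p-values below cover a spread that may be technical. Chip 2 stood apart in Xist, the X-inactivation RNA of female cells, which reached 25 CPM in 18 of 30 positive and 23 of 39 other cells there and in no cell of the other 5 chips. Chips thus differed in the animals they held, while both sides of chip 2 held Xist cells in like shares. Without the Xist cells edgeR again called 0 genes. Tested gene by gene with edgeR's quasi-likelihood test and chip as a block, none of 10960 genes differed between the sides at a Benjamini-Hochberg adjusted p under 0.05 (0% called). The lowest adjusted p was 0.271, and 723 genes had an unadjusted p under 0.05, of which 300 were higher and 423 lower in positive cells. DESeq2 on the same sums called 519 genes, 207 higher and 312 lower, or 1.89% and 2.85% of the tested genes. Limma-trend on the cells' mean log2(CPM + 1) called 2007 higher and 93 lower, beside a median log2 fold change over all tested genes of 0.36, against 0.06 in the edgeR fit. DESeq2 and limma-trend called 194 genes in common, all in the same direction (117 higher and 77 lower). Since edgeR called no gene, the levels below are given chip by chip, and most of the genes described were chosen from the lists after their values were seen. As a background for them, the 3 positive sums lay above all 3 other sums for 769 of the 10960 genes (7.02%) and below all of them for 677 (6.18%). For shares of detecting cells the same held for 2672 genes (24.4%) and 213 genes (1.94%). Fewer cells that hold a transcript and less of it per cell cannot be told apart in these sums.

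Of the gene groups compared, the granule protein genes are closest to the rule genes. The list holds 20 genes besides Mpo and Prtn3 and is not limited to granule contents, since Ms4a3 encodes a membrane protein. Of the 20 genes, 13 passed the filter on low counts, of which Elane and Ms4a3 passed through the positive side alone. Of the 11 with reads on both sides, 10 had a fold change above 0 in positive cells and 2 (Ctsg and Cst7) did not overlap between the sides, against the background of 7.02%. The median log2 fold change of these 11 was 0.78, against 0.06 over all tested genes, and on cell means it was 1.24 against 0.36. DESeq2 called 6 of the 13 higher and none lower, against 1.89% and 2.85% of all tested genes. Elane and Ms4a3 were among the 6 and, without a read in other cells, could only come out higher.

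Elane, the elastase gene, had 260, 88.5 and 243 CPM in positive cells of chips 1, 2 and 3, against 0 reads in all 108 other cells. Reads were present in 26 positive cells, and 0 of 108 other cells leaves room for a share of up to 2.78% with a read. This limit counts cells as independent and says nothing of cells whose transcripts were not captured. Over all 3 chips, on plain library totals, the positive level of 208 CPM was at least 5574-fold higher than the 3 reads, or 0.0373 CPM, that a count of 0 allows on the other side. This bound covers counting error only, and a single cell held 69.5%, 64.1% and 52.9% of the positive Elane reads of chips 1, 2 and 3. The edgeR adjusted p was 0.271. Ms4a3, a membrane protein gene of granulocyte and monocyte progenitors, was likewise without a read in other cells, against 39.5, 22.1 and 18.7 CPM in positive cells. Its reads came from 5 positive cells.

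Ctsg had 137, 197 and 318 CPM in positive cells, against 4.62, 0 and 2.13 CPM in other cells. Cells detecting it made up 36.4% ± 10.4 of positive cells and 3.90% ± 3.43 of other cells (SD, n = 3 chips each). Its log2 fold change was 7.49 ± 1.63 (SE, edgeR adjusted p = 0.603). Cst7, which encodes cystatin F, an inhibitor of granule proteases, was present more widely. It had 310, 227 and 469 CPM in positive cells and 96.0, 107 and 155 CPM in other cells, and was detected in 75 of 105 and 39 of 108 cells. Plac8, another gene of this list, was detected in all 105 positive cells and in 97 other cells, at 2775, 2426 and 4580 CPM against 1452, 1663 and 3158 CPM. Serpinb1a, which encodes an inhibitor of elastase and proteinase 3, had 272, 175 and 297 CPM in positive cells, against 194, 89.3 and 92.7 CPM in other cells, where chip 1 overlapped.

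Promoters are shown for Mpo and Prtn3, which chose the cells, and for Elane and Ctsg, the protease genes of the same granules whose sums did not overlap between the sides. They are RefSeq sequences of build GRCm38.p6 from 250 bases before to 50 bases after the gene start, read 5′ to 3′ along the gene, and capitals mark GAGGAA, a core sequence of PU.1 and other ETS factors. Elane is at chr10:79886062-79886361 and Prtn3 at chr10:79879417-79879716, both on the plus strand and 6645 bases apart from start to start. Ctsg is at chr14:56102525-56102824 on the minus strand, and Mpo at chr11:87793534-87793833 on the plus strand.
Elane: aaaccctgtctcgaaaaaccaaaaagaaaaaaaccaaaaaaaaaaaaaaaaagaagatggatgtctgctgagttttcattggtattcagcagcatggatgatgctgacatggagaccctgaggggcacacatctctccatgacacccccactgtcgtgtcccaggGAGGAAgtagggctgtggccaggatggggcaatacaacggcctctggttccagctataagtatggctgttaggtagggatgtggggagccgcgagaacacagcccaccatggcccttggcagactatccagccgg
Prtn3: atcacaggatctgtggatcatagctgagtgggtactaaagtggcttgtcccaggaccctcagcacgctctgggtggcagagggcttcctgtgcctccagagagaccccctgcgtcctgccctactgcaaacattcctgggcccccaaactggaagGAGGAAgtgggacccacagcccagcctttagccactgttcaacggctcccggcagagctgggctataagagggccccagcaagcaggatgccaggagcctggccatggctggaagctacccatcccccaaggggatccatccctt
Ctsg: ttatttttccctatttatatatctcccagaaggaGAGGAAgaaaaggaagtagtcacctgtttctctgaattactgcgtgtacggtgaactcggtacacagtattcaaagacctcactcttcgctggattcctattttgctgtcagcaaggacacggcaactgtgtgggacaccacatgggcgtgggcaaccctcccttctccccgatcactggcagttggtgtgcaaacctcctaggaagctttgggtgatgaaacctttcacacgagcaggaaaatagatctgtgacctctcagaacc
Mpo: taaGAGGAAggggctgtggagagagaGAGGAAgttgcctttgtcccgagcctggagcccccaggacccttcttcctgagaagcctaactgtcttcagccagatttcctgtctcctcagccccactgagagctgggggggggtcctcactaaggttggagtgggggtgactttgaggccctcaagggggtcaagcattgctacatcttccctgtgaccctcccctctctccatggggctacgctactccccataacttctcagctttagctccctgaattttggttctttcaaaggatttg

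GAGGAA, searched on both strands, was found in all 4 windows and in 28.3% of the 32851 promoters of the table. It began 85 bases upstream of the start of Elane, 95 bases upstream of Prtn3, 216 bases upstream of Ctsg, and 247 and 224 bases upstream of Mpo. Of 17 granule list genes with a promoter in the table, 9 held it in at least 1 promoter, against 31.3% of all genes there. The letters AACNG of a Myb site were also in all 4 windows, as in 80.3% of promoters. TGTGGT of a Runx site was in that of Ctsg and in 16.8% of promoters. The C/EBP letters TTNCNNAA (40.7% of promoters) and the GATA letters AGATAA (11.2%) were in none of the 4. These matches describe letters in the windows and were not tested against the expression data.

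Genes that serve the granules mostly overlapped between the sides. Of 18 genes of granule processing and lysosomal handling none lay above the other side on all chips and 1 (Plbd1) lay below it. Over all tested genes these shares were 7.02% and 6.18%. The median log2 fold change of the 18 was 0.21. Ctsc, which encodes the protease that activates elastase, proteinase 3 and cathepsin G, had 51.2, 140 and 273 CPM in positive cells against 79.9, 91.7 and 66.2 CPM in other cells, so that chip 1 ran the other way. Among 20 protein folding genes of the endoplasmic reticulum, Calr, Pdia3 and Manf lay above on all chips, against 7.02% of all genes. The median of the 20 was 0.29. Among 8 haem synthesis genes Alas1, the first enzyme of the pathway, lay above on all chips, against the same 7.02%. Lyz2, the lysozyme gene of maturing myeloid cells, overlapped, with 30.6, 30.8 and 39.7 CPM in positive and 22.8, 29.2 and 35.8 CPM in other cells.

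Genes of mature neutrophils were nearly absent on both sides. S100a8, S100a9, Ltf and Camp were detected in no TN cell, and Ngp, a secondary granule gene, in 2 of 105 positive and 0 of 108 other cells. Cebpe, a factor needed for secondary granules, had no read in any TN cell. Gata1, Klf1 and Pf4, markers of red cell and platelet lineages, were detected on neither side. With the mast cell protease gene Cpa3 added, these markers were found in 6 positive and 7 other cells. They did not stand for their list of 21 red cell, platelet and mast cell genes. By chip, positive cells held 1.27, 1.10 and 0.947 list genes per cell, against 0.737, 0.821 and 0.677 in other cells. The ratio was 1.48, against 1.30 for all genes. In the narrower range of detected genes described below it was 1.06 against 1.09, and the chips overlapped. On the sums, none of 5 tested members separated the sides on all chips.

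Csf1r, the receptor of macrophage colony-stimulating factor, had 197, 167 and 169 CPM in positive cells, against 38.6, 55.5 and 78.3 CPM in other cells. It was detected in 45.6% ± 2.75 of positive and 16.6% ± 11.1 of other cells (SD, n = 3 chips each), and its log2 fold change was 1.68 ± 0.42 (SE, edgeR adjusted p = 0.651). F13a1, a clotting factor subunit gene of monocyte progenitors, had 386, 226 and 504 CPM in positive cells and 0.382, 33.2 and 37.6 CPM in other cells. Neither gene overlapped between the sides, but their list differed with the measure. Of 26 monocyte and macrophage genes, 2 lay above and 4 (Ccr2, Lgals3, Mpeg1 and Clec4a2) below the other side on all chips. Over all tested genes these shares were 7.02% and 6.18%. The list's median log2 fold change was −0.03 on the sums and 0.49 on cell means. Shares of detecting cells lay above on all chips for 11 members and below for 2, against 24.4% and 1.94% of all genes. DESeq2 called 5 members higher and 3 lower, against 1.89% and 2.85% of all genes. Positive cells held 1.30 times as many members per cell, as for all genes. In the narrower range of detected genes described below the ratio was 1.23 against 1.09, without overlap of the chips.

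Ccr2, the chemokine receptor of monocytes, had 286, 213 and 223 CPM in positive cells, against 450, 438 and 458 CPM in other cells. Cells detecting it were no rarer among the positive, with 45 of 105 against 41 of 108, and on cell means its log2 fold change was 0.21. Cx3cr1, the fractalkine receptor gene, showed 102, 135 and 168 CPM in positive cells, against 12.9, 7.56 and 287 CPM in other cells, and 1 cell held 58.9% of the other side's reads on chip 3. At least 1 of Csf1r, Ctsg, Elane and Ms4a3 was detected in 69 of 105 positive cells and 19 of 108 other cells.

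Of 21 tested genes of the myeloid receptor list, 2 lay above and 2 below the other side on all chips. Over all tested genes these shares were 7.02% and 6.18%. DESeq2 called 3 of the 21 higher and 3 lower, against 1.89% and 2.85% of all genes. Shares of detecting cells lay above on all chips for 7 members and below for 1, against 24.4% and 1.94%. In the narrower range of detected genes described below, positive cells held 1.18 times as many members per cell, against 1.09 for all genes. The chips did not overlap there. Cd34, a surface protein of progenitors, had 481, 588 and 619 CPM in positive cells, against 315, 289 and 132 CPM in other cells. The shares of detecting cells were 71.7% ± 9.21 in positive and 31.8% ± 8.22 in other cells (SD, n = 3 chips each). The log2 fold change came to 1.28 ± 0.35 (SE, edgeR adjusted p = 0.695). Csf3r, the receptor of granulocyte colony-stimulating factor, overlapped, with 70.6, 7.96 and 63.4 CPM in positive and 2.99, 0 and 67.3 CPM in other cells. It was detected in 18 of 105 positive and 5 of 108 other cells, and DESeq2 and limma-trend called it higher in positive cells. Csf2rb, the shared chain of the GM-CSF, IL-3 and IL-5 receptors, overlapped too, with 123, 92.1 and 119 CPM in positive and 32.7, 46.3 and 160 CPM in other cells. Limma-trend called Csf2rb higher in positive cells and DESeq2 did not call it.

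Cebpa, a factor that drives entry into the granulocyte and monocyte lineage, had 24.6, 24.9 and 29.4 CPM in positive cells, against 2.32, 4.21 and 9.51 CPM in other cells. It was detected in 22 of 105 positive and 6 of 108 other cells. Its fold change was 5.78 on the sums (edgeR adjusted p = 0.779), and without the Mki67 cells described below its log2 fold change was −0.16. Spi1, which encodes PU.1, had 36.9, 36.3 and 14.8 CPM in positive and 11.8, 29.0 and 21.2 CPM in other cells, and Gfi1 was detected in 1 cell on each side. Irf8, a factor of monocyte and dendritic progenitors, had overlapping sums of 1164, 1044 and 1229 CPM in positive and 1137, 1164 and 1744 CPM in other cells. It was detected in 97 of 105 positive and 76 of 108 other cells. The log2 fold change of Irf8 was −0.21 on the sums but 1.70 on cell means, where limma-trend called it higher in positive cells. Of the 18 tested myeloid factors, 2 lay above and 2 below on all chips, against 7.02% and 6.18% of all genes. DESeq2 called 1 of them lower, against 2.85% of all genes, and none higher. This was Irf5, with 95.0, 56.7 and 66.1 CPM in positive and 235, 210 and 226 CPM in other cells.

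Kit, the stem cell factor receptor, and Flt3, the receptor of the transgenic ligand, did not separate the sides. Kit had 178, 113 and 101 CPM in positive and 272, 402 and 58.4 CPM in other cells, and Flt3 had 283, 435 and 231 CPM in positive and 343, 217 and 433 CPM in other cells. Detection of Flt3 was 62 of 105 and 58 of 108 cells. The stem cell marker genes Procr and Mecom were detected in no positive cell, and Hlf in 3. In other cells Procr was likewise not detected, Mecom was detected in 1 and Hlf in 3. Of 19 tested stem and multipotent genes, 2 lay above on all chips and none below, against 7.02% and 6.18% of all genes. Positive cells held 5.45 of the 24 list genes per cell and other cells 3.97, a ratio of 1.37 against 1.30 for all genes.

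**Figure D2:**
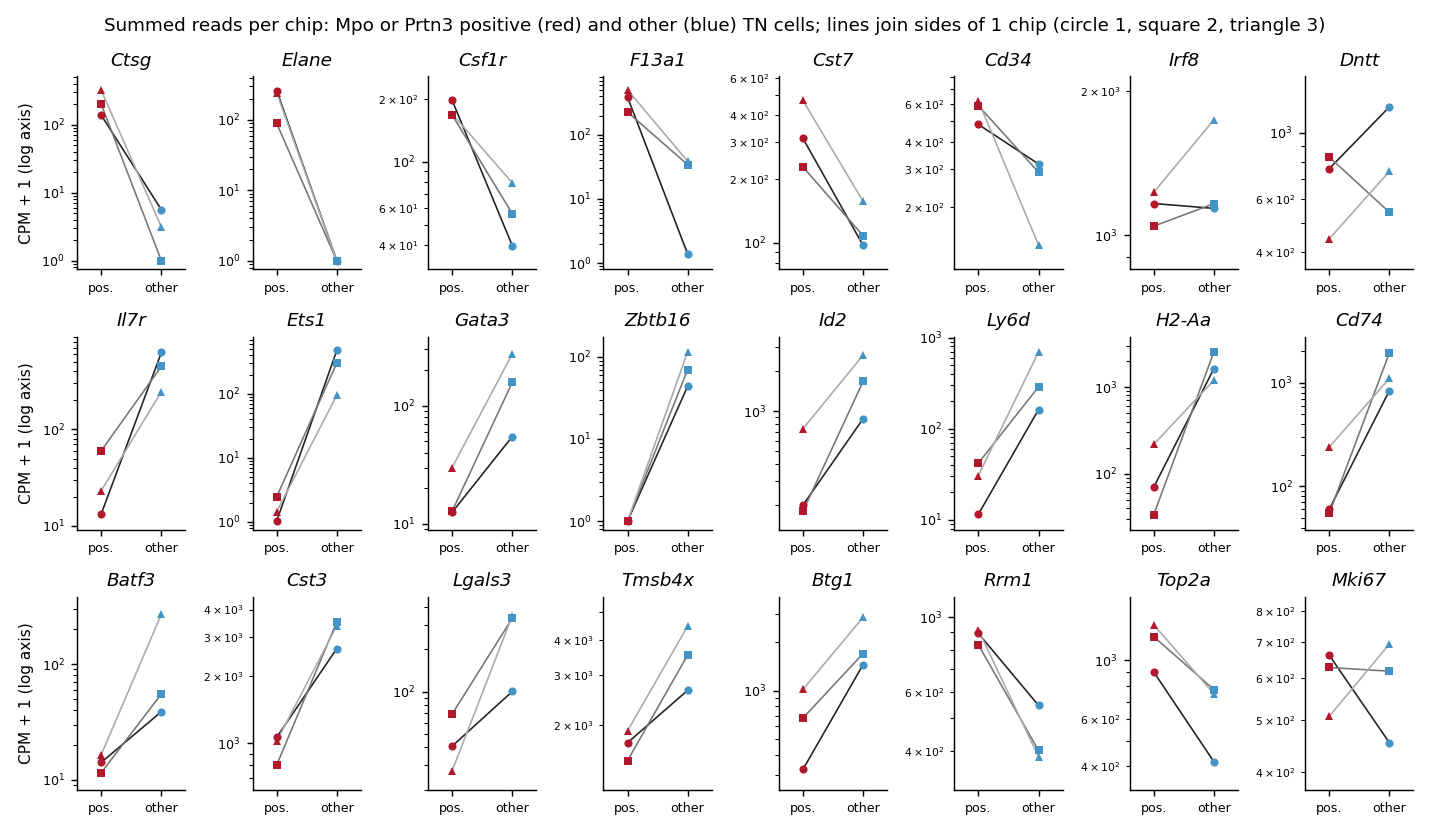
Level of 24 genes in the reads summed per chip, in CPM plus 1 on log axes that differ between panels, for Mpo or Prtn3 positive cells (red, left) and other TN cells (blue, right), with lines that join the sides of a chip. Ctsg, Elane and Csf1r lie higher and Il7r, Ets1, Zbtb16, H2-Aa and Cst3 lower in positive cells on all 3 chips, while Irf8, Dntt and Mki67 overlap.

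Genes of T and innate lymphoid cells lay lower in the positive cells. Of 22 list genes 12 passed the filter on low counts, of which Zbtb16 and Rora passed through the other side alone. Of the 10 with reads on both sides, 7 lay below the other side on all chips, against a background of 6.18%, and none above. The median log2 fold change of these 10 was −2.55. DESeq2 called 10 of the 12 lower, Zbtb16 among them, against 2.85% of all tested genes. Without a read in positive cells, Zbtb16 and Rora could only come out lower. Positive cells held 1.08, 0.967 and 0.895 of the 22 list genes per cell on chips 1, 2 and 3, against 2.45, 2.23 and 2.10 in other cells, although positive cells held 1.30 times as many detected genes in all.

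Zbtb16, which encodes the innate lymphoid factor PLZF, had no read in the 105 positive cells, so that a share of up to 2.86% with a read remains possible under the same limits. In other cells it had 43.0, 69.1 and 115 CPM, from 10 cells. Gata3, a factor of T and innate lymphoid cells, had 11.5, 11.8 and 29.0 CPM in positive cells, against 53.8, 157 and 273 CPM in other cells. Tcf7, which encodes TCF-1, was detected in 5 of 105 positive and 19 of 108 other cells. Cd7 was detected in 19 of 105 positive and 36 of 108 other cells (log2 fold change −2.70 ± 0.44, SE, edgeR adjusted p = 0.461).

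Id2, an inhibitor of E protein factors that both innate lymphoid and dendritic cells use, had 198, 178 and 738 CPM in positive cells, against 877, 1666 and 2623 CPM in other cells. Its transcript was detected in 31.1% ± 7.29 of positive and 58.7% ± 5.04 of other cells (SD, n = 3 chips each). Its log2 fold change was −2.40 ± 0.30 (SE, edgeR adjusted p = 0.290). With the cells thinned to equal reads Id2 was the 1 gene that edgeR called (adjusted p = 0.0491, log2 fold change −2.29), within a range of adjusted p from 5.3e-14 (DESeq2) to 1.0 (without replicate 2) over 20 settings.

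Early lymphoid genes were split. Of the 22 tested members with reads on both sides, 8 lay below the other side on all chips (against 6.18% of all genes) and 1 lay above. The median log2 fold change of these 22 was −0.71. Il7r, the interleukin 7 receptor chain of lymphoid progenitors, had 12.4, 59.3 and 22.2 CPM in positive cells, against 628, 451 and 246 CPM in other cells, and was detected in 7 of 105 and 25 of 108 cells. Its log2 fold change was −3.98 ± 0.61 (SE, edgeR adjusted p = 0.444). Ly6d, the surface antigen that separates the populations in the sort, had 10.5, 40.9 and 29.6 CPM in positive cells, against 161, 286 and 693 CPM in other cells. The shares of cells detecting Ly6d overlapped, with 13 of 105 and 21 of 108 cells, and 1 cell held 39.9%, 61.8% and 76.9% of the other side's Ly6d reads on chips 1, 2 and 3. Ets1, a lymphoid factor chosen after its values were seen, had 0.0306, 1.47 and 0.442 CPM in positive cells, against 478, 303 and 94.1 CPM in other cells.

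Dntt, which encodes terminal deoxynucleotidyl transferase, did not follow Il7r. It had 758, 829 and 443 CPM in positive cells and 1215, 543 and 742 CPM in other cells, and was detected in 26 of 105 and 38 of 108 cells (edgeR adjusted p = 0.919). Among B-lineage genes 2 of 11 tested members lay below on all chips, against 6.18% of all genes. Ebf1, the factor that starts B-lineage commitment, was detected in 1 positive and 7 other cells. Rag1, Cd79a, Vpreb1 and Pax5 were detected in no positive cell and in 3, 3, 3 and 1 other cells.

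Genes of antigen presentation also lay lower in positive cells. Of 10 tested MHC class II genes, 7 lay below on all chips (against 6.18% of all genes) and none above, with a median log2 fold change of −3.19. H2-Aa had 69.1, 32.8 and 217 CPM in positive cells, against 1635, 2556 and 1200 CPM in other cells, and was detected in 13 of 105 and 44 of 108 cells. Its log2 fold change was −4.45 ± 0.78 (SE, edgeR adjusted p = 0.495). Cd74, the invariant chain, had 59.0, 54.0 and 238 CPM in positive cells, against 835, 1928 and 1096 CPM in other cells. H2-Eb1 had 19.4, 15.7 and 42.3 CPM in positive cells, against 365, 844 and 233 CPM in other cells.

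Conventional dendritic cell genes had 4 of 18 tested members below on all chips (against 6.18% of all genes) and none above, and a median log2 fold change of −1.18 on the sums. On cell means that median was −0.07, beside 0.36 over all genes. Batf3, a factor of cross-presenting dendritic cells, was detected in 4 of 105 positive and 26 of 108 other cells, with 13.2, 10.5 and 15.5 CPM against 37.8, 54.3 and 269 CPM. Cst3, which encodes cystatin C, was detected in 96 of 105 positive and 93 of 108 other cells, at 1064, 799 and 1022 CPM against 2670, 3525 and 3382 CPM. Its log2 fold change was −1.73 ± 0.19 (SE, edgeR adjusted p = 0.271), and on cell means it was −0.04. Xcr1 was detected on neither side, and Zbtb46 in 1 other cell. Of 18 tested plasmacytoid dendritic genes, 5 lay below on all chips, against the same 6.18%. Their median was −0.81 on the sums and −0.06 on cell means, and positive cells held 1.08 times as many of them per cell as other cells. Siglech, a lectin gene of that lineage, was detected in 10 positive and 11 other cells, with 23.4, 7.70 and 24.7 CPM in positive and 46.5, 81.0 and 108 CPM in other cells.

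Division genes were detected in more of the positive cells, as were many genes of other kinds. The shares of detecting cells lay above the other side on all chips for 15 of 20 G1/S genes and 13 of 20 G2/M genes, against 24.4% of all genes. Mki67, the proliferation marker Ki-67, was detected in 76.7% ± 7.59 of positive and 48.6% ± 5.47 of other cells (SD, n = 3 chips each). The sums of its reads overlapped, with 661, 626 and 507 CPM in positive and 452, 616 and 693 CPM in other cells. On cell means its log2 fold change was 2.22, which limma-trend called. By sums, 5 of 20 G1/S genes (Rrm1, Mcm3, Mcm7, Slbp and Uhrf1) and 5 of 20 G2/M genes (Top2a, Bub1b, Cdk1, Ccnb1 and Cenpf) lay above on all chips, against 7.02% of all genes, and none of either list below. Rrm1, a subunit of ribonucleotide reductase, had 893, 826 and 915 CPM in positive cells, against 545, 400.5 and 384 CPM in other cells. Top2a, a topoisomerase of dividing cells, had 902, 1224 and 1355 CPM in positive cells, against 416, 776 and 747 CPM in other cells.

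Genes of growth lay the same way. Of 20 Myc-related and nucleolar genes 4 (Ncl, Npm1, Nop56 and Nolc1) lay above on all chips, as did 4 of 17 glycolytic genes (Hk3, Gpi1, Aldoa and Tpi1), against 7.02% of all genes, with medians of 0.39 and 0.35 on the log2 scale. Hspd1, a mitochondrial chaperone chosen after its values were seen, had 419, 366 and 469 CPM in positive cells, against 166, 196 and 233 CPM in other cells. The larger share of Mki67 cells and the larger number of detected genes move with these lists, and their part in them was not tested.

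Genes of the cytoskeleton and the annexin and S100 families differed with the measure. On the sums, of 23 tested members, 10 lay below on all chips (against 6.18% of all genes) and none above, with a median log2 fold change of −0.70. On cell means the median was −0.09, and positive cells held 1.04 times as many members per cell as other cells. The shares of detecting cells lay above on all chips for 5 members and below for 4, against 24.4% and 1.94% of all genes. DESeq2 called 8 lower, against 2.85% of all genes. Tmsb4x, which encodes the actin-binding thymosin beta 4, was detected in all 105 positive and 107 of 108 other cells, at 1731, 1497 and 1907 CPM against 2651, 3534 and 4467 CPM (log2 fold change −1.03 ± 0.16, SE, edgeR adjusted p = 0.444). Lgals3, which encodes galectin 3, was detected in 12 positive and 32 other cells, with 39.8, 68.1 and 26.2 CPM against 99.1, 332 and 346 CPM. Btg1, an antiproliferative gene outside the lists and chosen after its values were seen, had 324, 675 and 1017 CPM in positive cells, against 1449, 1696 and 2844 CPM in other cells. Of 19 immediate-early genes 5 lay below and 1 above, against 6.18% and 7.02% of all genes. Their median of −0.52 on the sums was 0.28 on cell means. Ribosomal protein genes and interferon-response genes had medians of 0.07 and −0.27 on the sums and of 0.50 and 0.26 on cell means.

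The number of list members detected per cell can be set beside the general gap in detected genes. Positive cells held 5.06 ± 0.29 genes of the granule protein list and other cells 2.95 ± 0.44 (SD, n = 3 chips each). The ratio was 1.72, against 1.30 for all genes. G2/M genes gave 1.74, G1/S genes 1.50, MHC class II genes 0.631 and T and innate lymphoid genes 0.434. The comparison was repeated, as an alternative added after the data were seen, in cells with 2000 to 3500 detected genes, where the ratio for all genes was 1.09. There granule protein genes gave 1.47, MHC class II genes 0.728 and T and innate lymphoid genes 0.483, each with no overlap of the chips. G1/S genes gave 1.07 and G2/M genes 1.29, and the chips overlapped for G2/M. Early lymphoid genes, at 1.01 over all cells, gave 0.790, with 7.15, 8.43 and 6.70 members per positive cell against 9.55, 9.70 and 8.94 per other cell. In both sets the granule counts include Elane and Ms4a3, which had no read in other cells. The T and innate lymphoid counts include Zbtb16 and Rora, which had no read in positive cells.

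**Figure D3:**
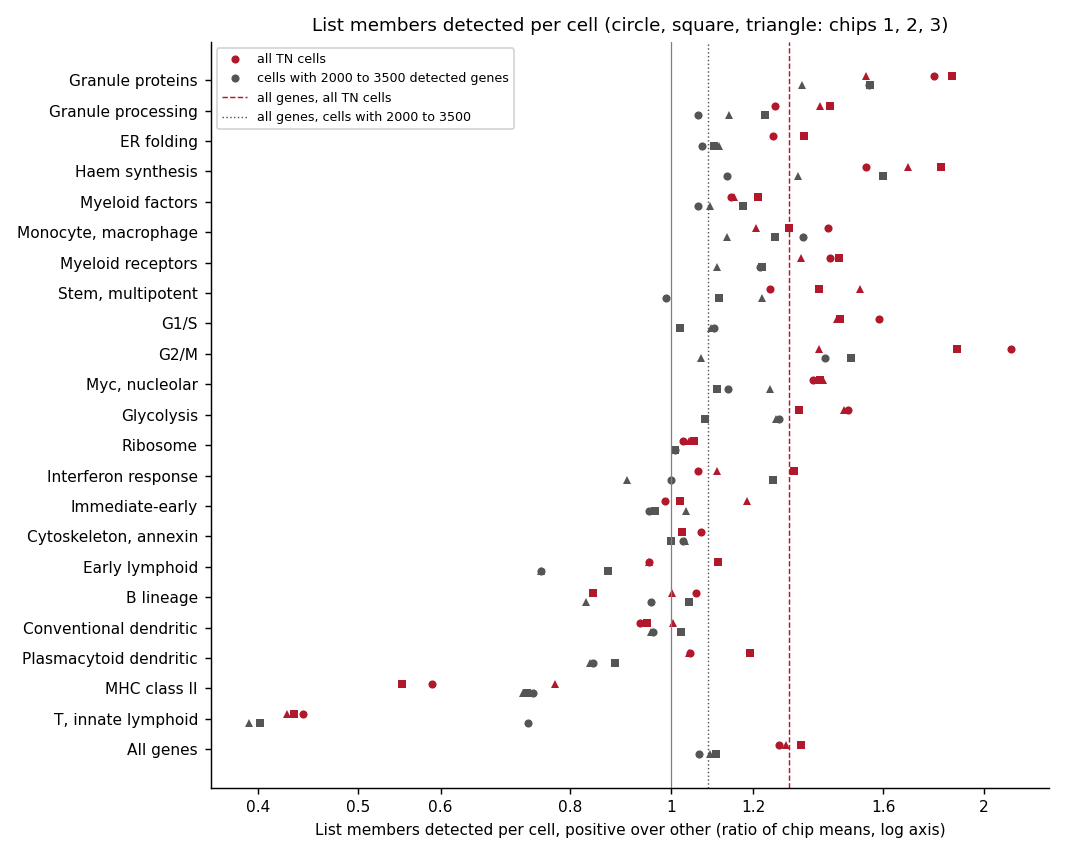
Number of list members detected per cell, positive over other TN cells, as a ratio of chip means on a log axis, for all TN cells (red) and for cells with 2000 to 3500 detected genes (grey); vertical lines give the ratio over all genes, 1.30 and 1.09. Granule proteins lie right of the line for all genes on each chip, and MHC class II and T and innate lymphoid genes lie left of 1 on each chip, in both sets of cells.

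The 3 kinds of positive cells differed in what else they held. Ctsg was detected in 29 of 48 cells with both genes, 7 of 25 cells with Mpo alone and 3 of 32 cells with Prtn3 alone, against 4 of 108 other cells. Elane followed the same order, with 20 of 48, 1 of 25 and 1 of 32 cells. Csf1r was found in 29 of 48 cells with both, 6 of 25 with Mpo alone and 13 of 32 with Prtn3 alone, against 17 of 108 other cells. F13a1 was found in 20, 1 and 8 cells of these groups, Cebpa in 16, 1 and 5, and Irf8 in 47, 18 and 32.

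Dntt ran against this order. It was detected in 4 of 48 cells with both genes, 18 of 25 cells with Mpo alone and 4 of 32 cells with Prtn3 alone, against 38 of 108 other cells. By chip, 7 of 8, 8 of 10 and 3 of 7 cells with Mpo alone held Dntt, against 0 of 11, 1 of 9 and 3 of 12 cells with Prtn3 alone. Other lymphoid genes were mixed. Notch1 was detected in 12 of 48 cells with both, 17 of 25 with Mpo alone and 14 of 32 with Prtn3 alone, and Gata3 in 0, 6 and 1. Il7r was detected in 1, 5 and 1 of these cells, Tcf7 in 1, 2 and 2, and Ly6d in 3, 2 and 8. Cd34 was detected in 22 of 25 cells with Mpo alone, 36 of 48 with both and 18 of 32 with Prtn3 alone.

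Dendritic genes were mixed as well. Id2 was detected in 17 of 32 cells with Prtn3 alone, against 9 of 25 with Mpo alone and 7 of 48 with both. Cd74 was detected in 16 of 32, 8 of 25 and 7 of 48 cells, and Batf3 in 4, 0 and 0. H2-Aa was detected in 6, 3 and 4 cells of the same groups, H2-Ab1 in 7, 7 and 6, and Cst3 in 30, 18 and 48. Mean detected genes per cell were 2974 in cells with both genes, 2761 with Mpo alone and 2734 with Prtn3 alone, against 2204 in other cells. These classes were formed after the data were seen, rest on as few as 7 cells per chip, and were given no test.

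**Figure D4:**
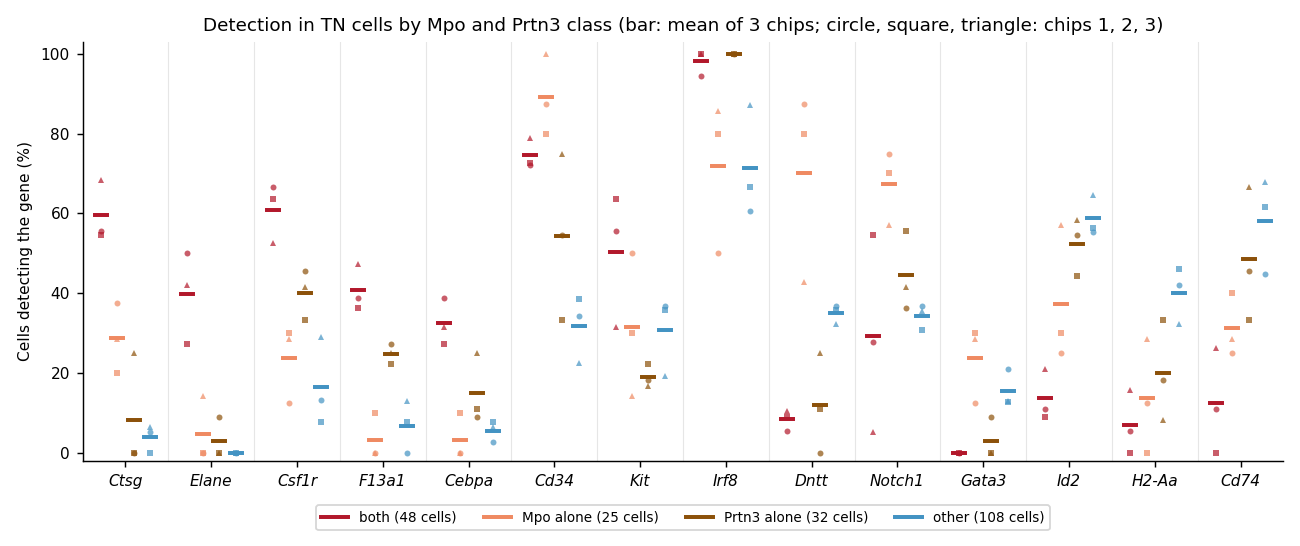
Share of TN cells that detect each of 14 genes, in percent, by Mpo and Prtn3 class, with the mean of 3 chips as a bar and each chip as a point. Ctsg, Elane and Csf1r are most frequent in the 48 cells with both genes, and Dntt, found in 18 of 25 cells with Mpo alone, is rare in the 2 other positive classes.

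The level of the higher rule gene gave a related picture. In the 38 cells at 1000 CPM or more, Ctsg was detected in 27, Elane in 19 and Dntt in 6. In the 50 cells from 100 to 1000 CPM these numbers were 11, 2 and 15, and in the 17 cells from 25 to 100 CPM they were 1, 1 and 5. Csf1r was detected in 21, 23 and 4 of these cells and Id2 in 6, 21 and 6. Level and class were read from the same cells, so these are not separate pieces of evidence.

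Markers of several lineages were present on both sides. At least 1 of H2-Aa, Dntt, Il7r, Tcf7, Gata3, Zbtb16, Siglech and Ebf1 was detected in 43 of 105 positive cells and in 90 of 108 other cells. Ctsg and Csf1r were detected together in 18 positive and 2 other cells.

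In the Ly6D+ population the same rule chose 4 of 40, 7 of 60 and 8 of 52 cells on chips 4, 5 and 6. None of these 19 cells held both genes at the threshold: 17 had Mpo alone and 2 Prtn3 alone. Dntt was detected in all 19, against 122 of 133 other Ly6D+ cells, and Ly6d in 18 and 125. Csf1r and F13a1 were detected in none of the 19 and Ctsg in 1, while Csf1r was found in 10 other Ly6D+ cells. Elane had no read in any Ly6D+ cell. Cd34 had 551, 204 and 508 CPM in positive Ly6D+ cells, against 183, 92.9 and 171 CPM in other Ly6D+ cells. Its log2 fold change there was 1.43, against 1.28 in TN, and edgeR called it in neither population.

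Tested in the same way, edgeR called none of 10417 genes between positive and other Ly6D+ cells (518 at an unadjusted p under 0.05), limma-trend called none and DESeq2 called 611. The difference of the contrast between the populations was tested as an interaction and edgeR called none of 11903 genes (661 at an unadjusted p under 0.05), limma-trend none and DESeq2 618. For Ly6d, Csf1r and Id2 the interaction had edgeR adjusted p values of 0.403, 0.857 and 0.857. The positive Ly6D+ sums rest on 4 to 8 cells, beside 36 to 53 cells on the other side, and each population had chips of its own, so chip and population cannot be told apart.

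**Figure D5:**
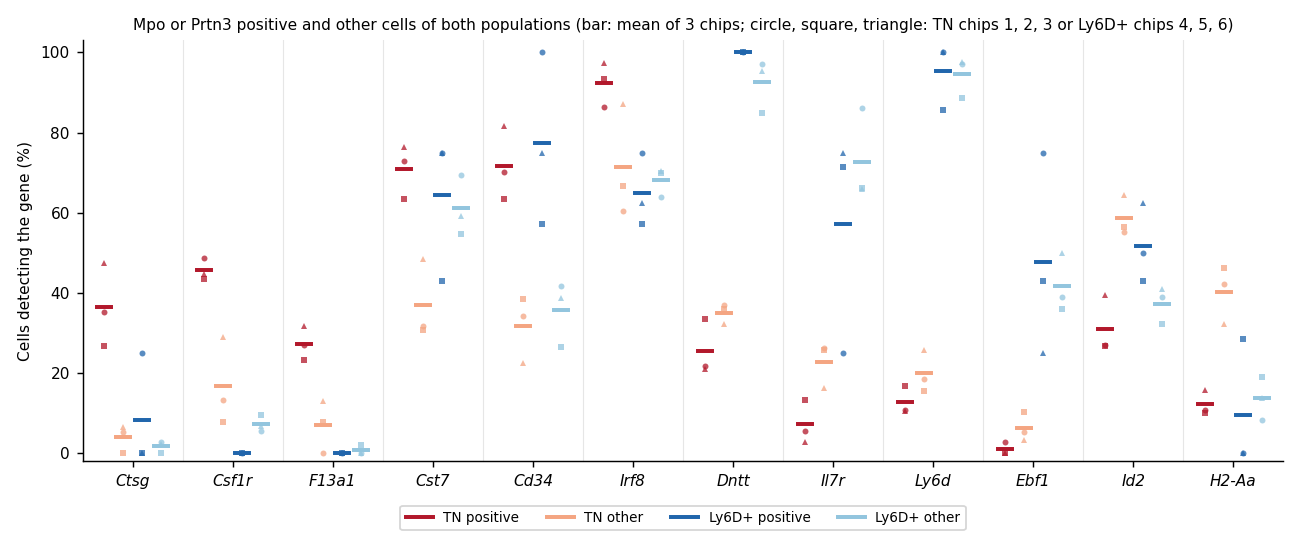
Share of cells that detect each of 12 genes, in percent, in Mpo or Prtn3 positive and other cells of the TN and Ly6D+ populations, with the mean of 3 chips as a bar and each chip as a point. Csf1r and F13a1 are absent from the 19 positive Ly6D+ cells and Dntt is in all of them, whereas Cd34 is more frequent in positive cells of both populations.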

How the data were processed

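Single cells were captured on Fluidigm C1 chips and their full-length cDNA was sequenced, per the labels' protocols. The deposited table holds whole-number read counts per gene and cell from the authors, on mouse build mm9 and with R 3.2.0 named in the submitters' processing notes. For the aligner, the counting, the gene annotation and the use of strand, no information is given in the sources used here. Without molecular identifiers or a stated use of strand, amplified copies, overlapping genes and antisense genes cannot be told apart. Gene IDs were named through RefSeq GRCm38.p6, which matched 23334 of 23427. How doublets were treated is not given, and no doublet caller was run here.

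A cell was positive at 25 CPM or more of Mpo or Prtn3, over the cell's summed gene counts. Counts were summed per chip and side, genes of low count were removed with filterByExpr, and sums were tested with edgeR 4.0.16 (TMM, quasi-likelihood, chip as block, Benjamini-Hochberg adjusted p under 0.05) in R 4.3.3, leaving out Mpo and Prtn3. DESeq2 1.42.0 and limma 3.58.1 were alternatives. Both sides of a chip were processed together, so the chip pairs them. Deviations of sums from their side's mean correlated at 0.033, 0.037 and 0.082 within chips 1, 2 and 3. For detection, cells were thinned to 200000 reads with a seed and a gene counted at 5 thinned reads. The edgeR test with chip as a block was tried on simulated counts. The bounds against a count of 0 use 3 reads over the whole side and, like the limits on shares of cells, cover counting error only.

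The members, the gene lists and the rules were chosen with earlier results of these data known. The rule for named genes took those called by edgeR, up to 12 a direction, up to 3 called members of each list, and 27 fixed genes. It gave only the fixed ones, and the other named genes were chosen after their values were seen. Some genes of the lists are not reported here by name.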

Additional observations from a re-analysis of the deposited data

How the results depend on the processing

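Between positive and other TN cells edgeR called 0 genes, and 0 in each of the fits without one replicate (0 to 0). The count was 2 with no replicate block (Adgre5 lower and Elane higher), 1 with cells thinned to equal reads (Id2, lower), 519 with DESeq2 and 2100 with limma-trend on cell means; the cause of these differences was not tested. In Ly6D+ cells DESeq2 called 611 genes, where edgeR called 0. For the difference between the populations edgeR called 1 gene with no replicate block, DESeq2 called 618, and the fits without one replicate gave 0 to 1 (Ly6d, without replicate 2).

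Of the log2 fold changes of the named genes in TN cells, 1161 values kept their direction and side of the threshold, 100 passed it only in the alternative and 40 turned their sign. On cell means Irf8 was 1.70, Flt3 0.83, Ccr2 0.21 and Anxa2 0.45. Thinned cells gave Lyz2 −0.21, and a rule at 100 CPM gave Gfi1 −0.75 and Mki67 −0.024. Leaving out a replicate gave Spi1 from −0.081 to 0.98, Flt3 from −0.59 to 0.36, Mki67 from −0.20 to 0.29, Kit from −1.22 to 0.085 and Ctsc from −0.015 to 1.34. A rule on Mpo only, whatever the Prtn3 level, gave Spi1 −0.086, Dntt 0.52 and Mki67 −0.26, and a rule on Prtn3 only gave Gfi1 −0.44, Irf8 0.25 and Ctsc −0.12. Without cells from 5 to below 100 CPM, Flt3 was 0.035 and Mki67 −0.080. Mki67 was −0.073 without cells under 1500 detected genes. Without H2-Aa cells Mki67 was −0.14 and Anxa2 0.39. Without Dntt cells Lyz2 was −0.15, Flt3 0.74 and Mki67 −0.12. Without Mki67 cells Cebpa was −0.16, Spi1 −1.42, Lyz2 −0.44, Dntt 0.22, Mki67 −0.19, Cx3cr1 −0.15 and Cd93 −0.038, and the median over all genes was −0.19. Without the Xist cells of chip 2 Lyz2 was −0.090, Siglech 0.048 and Mki67 −0.23. In cells with 2000 to 3500 detected genes, an alternative added after the data were seen, Kit was 0.25, Mki67 −0.35 and Ccr2 0.38.

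The gap in detected genes kept its direction at the 10 and 100 CPM rules (676 and 615 genes). Transcripts under 5 of 200000 thinned reads count as not detected in a cell. What limits the number of calls was not tested.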
